A study of Caenorhabditis elegans with 4 samples.

Results

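Regions called from ChIP of the nuclear hormone receptor NHR-12 on the arms of chromosome V were examined in L2 larvae of hermaphrodite Caenorhabditis elegans. A region was placed on the left arm when its midpoint lay below position 5231038 of chromosome V on genome build WS220, and on the right arm when it lay above 15693111, so each arm is the outer 25% of the chromosome. Position alone decided which regions were placed on the arms. The members, tests and lists were chosen with earlier results of these data known. Of the 55242 rows in the 3 deposited region lists, 4872 lay on these arms. They were 3 of the 197 regions of the combined list, 2188 of the 25045 regions of ChIP replicate 1 and 2681 of the 30000 regions of ChIP replicate 2. The replicate lists are far longer than the combined list, and that of replicate 2 has a round length. No threshold is stated for them, and how many of their regions are binding sites was not tested. All animals were of strain OP318, which carries the mutation unc-119(ed3) and the integrated transgene wgIs318. This transgene holds nhr-12 fused to TY1, EGFP and FLAG tags together with a wild-type copy of unc-119, and it was brought in by biolistic transformation. Culture was at 20 °C, fixation used 2% formaldehyde, and chromatin bound by the fusion protein was recovered with anti-GFP antibodies in 2 ChIP libraries. Each ChIP library had a matched input library from the same strain and stage, and no region list of an input or of an untagged strain was analysed here. A single transgenic strain was used, so effects of its insertion cannot be told apart from NHR-12 binding. Replicates are not stated to come from separate cultures, and the spread between them may be technical.

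Nuclear hormone receptors bind DNA through a zinc-finger domain, and many respond to small lipophilic ligands. The family is greatly expanded in nematodes. The arms of C. elegans autosomes recombine more and hold more repeats and more young gene families than the centres, and chromosome V is known for its clusters of chemoreceptor and nuclear receptor genes. In the RefSeq gene table of assembly WBcel235, counted by symbol over whole chromosomes, V carried 167 of 274 nuclear receptor genes (60.9%), nhr-12 itself among them. It carried 888 of 1308 serpentine chemoreceptor genes (67.9%), which encode candidate odorant and taste receptors, where it carried 4995 of all 19971 protein-coding genes. Of the detoxification families, V held 41 of 74 cytochrome P450 genes and 42 of 67 UDP-glycosyltransferase genes. It held 85 of 239 C-type lectin genes, 87 of 322 F-box genes and 3 of 72 MATH and BATH genes. These counts describe the chromosome. Genes at the regions below were not assigned, because the table is of another build than the region lists.

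The combined list, which the authors made from both ChIP replicates, held 3 regions on the V arms, all of them on the left arm and all 564 bp wide. The first, from 8539 to 9102, lay near the left end of the chromosome and had a score of 1.59, rank 166 of 197. In replicate 2 it met a region of score 1.58 at rank 130 of 30000. In replicate 1 it met only a weak region, of score 0.0988 at rank 14579 of 25045. The second combined region, from 1151231 to 1151794, had the list's highest score of 2.37, shared by 102 regions. It met rank 135 in replicate 1, where the score of 2.86 was also that list's highest, tied over 344 nuclear regions, and rank 595 in replicate 2, with a score of 0.622. The third, from 1805674 to 1806237, had a score of 1.47, rank 173. It met 3 regions of replicate 1, the best at rank 601 with a score of 1.99, and 2 of replicate 2, the best at rank 133 with a score of 1.58. Thus 2 of the 3 had a partner in the strongest 10% of both replicates, 1 had it in replicate 2 only, and none had a partner in the strongest 1% of both. Of all 197 combined regions, 155 (78.7%) had partners in the strongest 10% of both and 86 (43.7%) in the strongest 1% of both. At the strongest 1% this held for 6 of 15 in the V centre and 17 of 59 (28.8%) on the arms of the other autosomes. Scores are the authors' own and their scale is not stated, so they rank regions within a list and are not compared between lists.

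These 3 regions were 1.52% of the combined list (95% exact binomial interval 0.315 to 4.39), where the arms make up 10.4% of the nuclear length, or 20.6 regions for a list of this size (two-sided exact binomial test, p = 1.80e-06). That test was chosen with earlier results of these data known. The right arm held 0 of 197 combined regions, which allows a share of up to 1.52%. On chromosome V itself the arms held 3 of 18 combined regions, 16.7% against 50.0% of the length (exact binomial test, adjusted p = 0.00754). With arms drawn as the outer 2/3 of the chromosome they held 9 of 18 and that call was lost (exact binomial test, adjusted p = 0.140), so combined regions also lay just inside the boundaries used here. Each of the 8 arms of chromosomes I to IV held combined regions, from 2 to 15 with a median of 6.5. Among the 10 autosomal arms the right arm of V ranked lowest and the left arm second lowest by combined regions per Mb, 0 and 0.574, where the others ranged from 0.580 to 3.99. The left arm therefore lay next to the lowest of the other arms and the right arm was the only one with none.

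The arms' share of a replicate list was below their share of the length, and it fell as the list was narrowed to stronger regions. In replicate 1 the arms held 8.74% of all nuclear regions, 7.81% of the strongest 50%, 6.44% of the strongest 25%, 5.52% of the strongest 10%, 5.20% of the strongest 5% and 3.20% of the strongest 1%. In replicate 2 the same steps gave 8.94%, 8.05%, 6.94%, 5.81%, 4.07% and 2.01%. The share of the V centre hardly moved, between 9.20% and 11.0% in replicate 1 and between 9.36% and 10.6% in replicate 2 over these steps. At the narrowest step the counts were small, 8 of 250 regions (95% interval 1.39 to 6.21) and 6 of 299 (0.740 to 4.32). In replicate 1 this step falls inside the tie at the highest score and takes tied regions in order of peak number. All 344 tied regions held 14 V-arm regions (4.07%, 95% interval 2.24 to 6.73). Cut to the length of the combined list, the 197 strongest nuclear regions of replicate 2, where no tie was cut, held 3 V-arm regions.

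**Figure D1:**
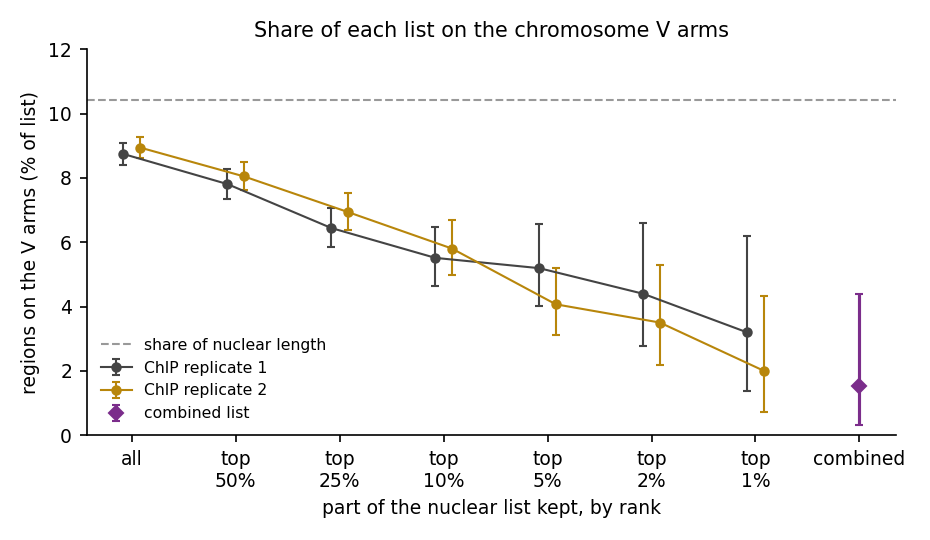
Percentage of each nuclear region list that lies on the chromosome V arms (vertical axis), for the whole list and for its strongest 50% to 1% by rank (horizontal axis), with 95% exact binomial intervals. Both replicates start near 8.74% and 8.94%, below the 10.4% given by length (dashed), and go down to 3.20% and 2.01%, beside 1.52% in the combined list; the last point of replicate 1 cuts a tie, which held 4.07% as a whole.

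The test of this difference compared the share of arm regions that fell in the strongest 10% of their own list, a share that is 10% over all nuclear regions by construction. In replicate 1, 138 of 2188 arm regions did so (6.31%), against 274 of 2583 in the V centre (10.6%) and 639 of 7239 on the other autosomal arms (8.83%). Both differences passed Fisher's exact test with Benjamini-Hochberg adjustment over 6 tests (two-sided, adjusted p = 7.02e-07 and 0.000200). In replicate 2, 174 of 2681 arm regions did so (6.49%), against 9.95% in the V centre and 9.52% on the other arms (same exact test, adjusted p = 4.65e-06 and 1.72e-06). Median ranks pointed the same way, with the arms at the 55.1 percentile of replicate 1 and the 56.1 percentile of replicate 2, and the V centre at 50.0 and 49.0. The ratio of arm to centre was 0.595 in replicate 1 and 0.652 in replicate 2. Tests of this kind treat regions as independent units, which neighbouring and overlapping regions are not, and they carry no error between animals. The 4 differences kept their direction and their call with overlapping regions merged, with the strongest 25%, with arms as the outer 2/3 and, where the other arms were the reference, without chromosome IV. At the strongest 1% with all ties kept, both calls held in replicate 2 and both were lost in replicate 1, where 0.640% of arm regions stood against 1.16% in the centre and 1.17% on the other arms (same exact test, adjusted p = 0.0819 and 0.0620).

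Region density on the arms was somewhat lower than in the centre of the same chromosome. Replicate 1 had 219 regions per Mb on the left arm, 200 on the right arm and 247 in the centre. Replicate 2 had 258, 255 and 288. On chromosomes I to IV, replicate 1 had 235 regions per Mb on the arms and 260 in the centres. There replicate 2 had more on the arms, 315 against 284. Of all V regions, the arms held 45.9% in replicate 1 and 47.1% in replicate 2, against 50.0% of the length (exact binomial test, adjusted p = 3.45e-08 and 1.62e-05 over the 3 lists). The arms' share was thus 0.917 and 0.942 times that of the length within V, where the same ratio of the combined list was 0.333. All arm regions had the standard width, 600 bp in replicate 1 and 516 bp in replicate 2, and no position was listed more than once. Replicate 1 covered 11.6% of the left arm, 10.7% of the right arm and 13.1% of the centre, and replicate 2 covered 12.3%, 12.1% and 13.6%. Overlapping entries merged into 1711 arm regions in replicate 1 and 2256 in replicate 2.

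Density varied along the arms, and the emptiest 500 kb bin of each arm was the same in both replicates. On the left arm, bins held between 64 and 133 regions in replicate 1, with a median of 119, and between 59 and 174 in replicate 2, with a median of 130. The emptiest left bin was from 2000001 to 2500000 in both replicates. It holds most of the longest region-free stretch of chromosome V, which ran over 221 kb from 2344040 to 2564773 without a region of either replicate, while the median such stretch of the left arm was 1558 bp. On the right arm, bins held between 64 and 124 regions in replicate 1 and between 37 and 194 in replicate 2. The emptiest was again the same, from 17000001 to 17500000, and so was the fullest, from 20000001 to 20500000 near the right end. The longest stretch of the right arm without a region of either replicate was shorter, 31.9 kb from 17398840 to 17430788. Across the 19 full bins of both arms, counts of the replicates had a Pearson r of 0.819 and a Spearman rho of 0.820. This describes bins that share the same underlying sequence, whose mappability and input signal were not tested here. With the stretches over 50 kb without a region left out of the length, left-arm densities were 228 and 269 per Mb, and the arms still held fewer regions than length gave in both replicates.

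**Figure D2:**
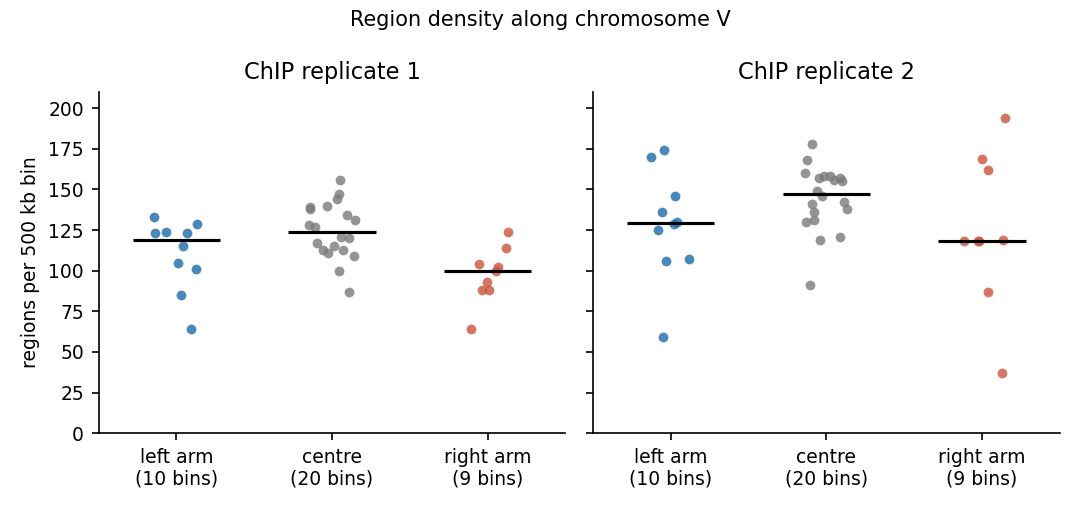
Number of regions in each full 500 kb bin of chromosome V (points), by arm or centre, in ChIP replicate 1 and ChIP replicate 2; black lines are medians. Bins of the right arm spread most in replicate 2, from 37 to 194, and each arm has a single bin well below its others in both replicates, 64 and 59 on the left and 64 and 37 on the right.

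Regions of the V arms met the other replicate at shares not far from those elsewhere. In replicate 1, 873 of 2188 arm regions (39.9%, 95% interval 37.8 to 42.0) overlapped a region of replicate 2 by 1 bp or more, beside 44.1% of all nuclear regions. In replicate 2, 855 of 2681 (31.9%, 30.1 to 33.7) overlapped replicate 1, beside 36.2% of all. Against the V centre, with 42.0% and 35.8%, the difference passed in replicate 2 alone (Fisher's exact test, adjusted p = 0.148 and 0.00673). Against the other autosomal arms, with 46.0% and 34.4%, it passed in both (same exact test, adjusted p = 2.89e-06 and 0.0310), and the call was lost in both when chromosome IV was left out of those arms (adjusted p = 0.177 and 0.402). When midpoints had to lie within 100 bp, no difference of the arms from either reference passed, with 14.1% of the arm regions of replicate 1 matched against 14.4% in the centre. Overlap was also set beside the part of the arm that the other list covers. Midpoints of replicate 1 regions fell inside replicate 2 regions for 26.0% of the left arm, 24.8% of the right arm and 25.6% of the centre, which was 2.11, 2.04 and 1.89 times the share of each stretch that replicate 2 covered. For replicate 2 these ratios were 1.98, 2.04 and 1.86. By this measure the arms stood no lower than the centre in either replicate, a description without a test.

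The arms differed more clearly in how often a region was strong in both replicates at once. In replicate 1, 15 of 2188 arm regions (0.686%) were in the strongest 10% and overlapped a region in the strongest 10% of replicate 2, beside 1.96% of all nuclear regions. The V centre had 44 of 2583 (1.70%) and the other autosomal arms 128 of 7239 (1.77%). In replicate 2, the arms again had 15, of 2681 (0.559%), beside 1.61% of all, with 1.53% in the V centre and 1.32% on the other arms. All 4 differences passed Fisher's exact test (adjusted over 6 tests, p = 0.00219 and 0.000770 in replicate 1, 0.00123 and 0.00136 in replicate 2), a test chosen after the data were seen. The counts of the 2 replicates are the same overlaps seen from each side, so their results are not independent. A region strong in both lists is also strong in its own, which was already rarer on the arms. The 8 arms of chromosomes I to IV had from 5 to 23 such regions in replicate 1 and from 4 to 25 in replicate 2. Low counts were on the left arm of II, 5 of 647 and 4 of 770, and of III, 8 of 796 and 8 of 1109. The left arm of V had 10 of 1144 and 10 of 1349, and the right arm 5 of 1044 and 5 of 1332. At the strongest 1% of both lists with all ties kept, none of the 716 arm pairs remained, where a pair is 2 regions that are each other's best overlap. This allows a share of up to 0.419%. The V centre had 6 such pairs among 887, the other autosomal arms 19 among 2706 and the whole nuclear genome 85 among 8936. All 6 of the V centre met a combined region, as did 79 of the 85 of the whole nuclear genome.

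**Figure D3:**
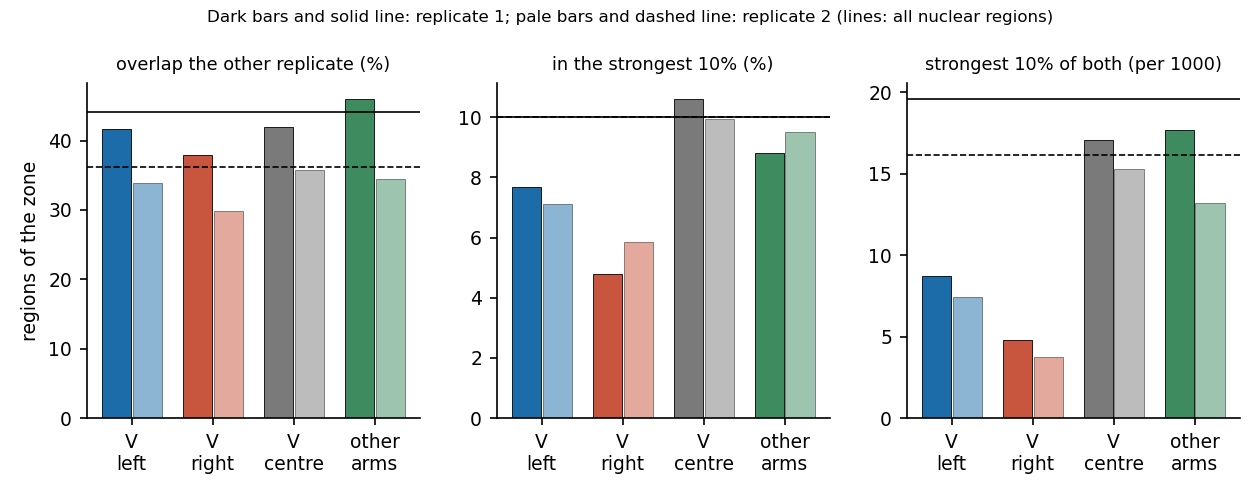
Bars give, for each zone, the percentage of regions that overlap the other replicate (left), the percentage in the strongest 10% of their list (middle) and the number per 1000 regions in the strongest 10% of both lists (right); dark bars are replicate 1, pale bars replicate 2 and lines all nuclear regions. Overlap with the other replicate is 41.7% and 34.0% on the left arm and 37.9% and 29.8% on the right, against 42.0% and 35.8% in the centre. Regions strong in both lists number 8.74 and 7.41 per 1000 on the left arm and 4.79 and 3.75 on the right, against 17.0 and 15.3 in the centre.

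Arm regions reached the combined list less often. On the arms, 6 regions of replicate 1 and 5 of replicate 2 overlapped a combined region, and all of them met the same 3 combined regions, so they are not independent. They were 0.274% and 0.186% of the arm regions, beside 1.07% and 0.891% of all nuclear regions. The V centre had 0.852% and 0.697% (Fisher's exact test, adjusted p = 0.0181 and 0.00990), and the other autosomal arms 1.12% and 0.793% (adjusted p = 0.000580 and 0.000647). Single arms of I to IV had from 4 to 20 such regions in replicate 1 and from 3 to 21 in replicate 2. The lowest counts included the left arm of III, 4 of 796 and 3 of 1109. The left arm of V had 6 of 1144 and 5 of 1349, and its right arm was the only autosomal arm with 0. The difference from the centre was lost with arms as the outer 2/3 (0.534% against 0.677% in replicate 1, adjusted p = 0.559 by the same exact test) and, in replicate 1, with midpoints within 100 bp. Once a region was in the strongest 10% of both lists, 3 of 15 arm regions met a combined region in either replicate (20.0%, 95% interval 4.33 to 48.1), beside 35.5% and 36.8% of all such regions. The V centre had 12 of 44 and 13 of 46, and the other arms 45 of 128 and 47 of 128. None of these 4 contrasts passed (Fisher's exact test, adjusted p = 0.738 in each), and with 15 arm regions the interval is too wide to show whether the arms differ at this step.

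The strongest 1% of a list met the strongest 10% of the other list in 2 of 8 arm regions of replicate 1 and in 2 of 6 of replicate 2. Over all nuclear regions this held for 140 of 250 and 164 of 299, and in the V centre for 9 of 23 and 10 of 28, with no test made on so few arm regions. Of the strongest 10%, 56.5% of arm regions of replicate 1 overlapped any region of replicate 2, against 50.7% in the centre and 59.2% of all, and in replicate 2 the shares were 42.0%, 50.0% and 49.7%. Replicate 1 had 8 arm regions in its strongest 1%, which is 0.366% of the arm regions beside 0.999% of all nuclear regions, and all 8 were tied at its highest score of 2.86, so their order among themselves and against the other 6 tied arm regions is that of peak number. The pair of neighbours from 5049227 to 5049826 and from 5049429 to 5050028, ranks 21 and 122, overlapped no region of replicate 2, and neither did the region from 17951058 to 17951657 on the right arm, rank 73. Those starting at 5064943, 4846980 and 16965544 met replicate 2 at ranks 4812, 5714 and 5500 of 30000. The other 2 started at 1151234, which is in the combined list, and at 727741. Replicate 2 had 6 arm regions in its strongest 1%, 0.224% of the arm regions beside 0.998% of all. Of these, those starting at 8588 and 1805620 met combined regions. The strongest of the 6, from 4095534 to 4096049 with a score of 1.69 at rank 88, met only rank 10998 of 25045 in replicate 1. On the right arm the region from 18990172 to 18990687, rank 260, met none. The strongest left-arm region of replicate 2 without a partner lay outside this class, from 4861118 to 4861633 at rank 410 with a score of 0.801. The region starting at 731396, rank 297, met rank 3444. The remaining region, from 4823887 to 4824402, ranked 237 and met rank 414 of replicate 1 from 4823588 to 4824187, and was not in the combined list.

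Some arm loci ranked high in both replicates and still had no combined region. On the left arm the pair with the best mean rank ran from 727741 to 728340 in replicate 1, at rank 172, and from 727604 to 728119 in replicate 2, at rank 373 with a score of 0.816. Of the 89 pairs of the nuclear genome whose scores were at least as high in both lists, ties and this pair included, 80 met a combined region. It sits in a stretch of 7.23 kb from 724682 to 731911 with 5 regions in the strongest 10% of replicate 1 and 3 in the strongest 10% of replicate 2, none of which met a combined region. No other 20 kb window of the V arms, which span 10.5 Mb, held at least 3 of each. The V centre, also 10.5 Mb, had 7 such windows, 4 of them with a combined region. The other autosomal arms had 16 over 30.8 Mb, 7 of them with a combined region. Such windows need regions of the strongest 10%, which were rarer on the V arms, and their counts were not tested. The next pairs of the left arm started at 1151234 and at 1805960 in replicate 1 and belong to combined regions described above. On the right arm the best pair ran from 16355834 to 16356433 in replicate 1, at rank 430 with a score of 2.39, and from 16355612 to 16356127 in replicate 2, at rank 1454 with a score of 0.335. Of the 131 nuclear pairs with scores at least as high in both, 104 met a combined region. The second right-arm pair started at 16592268, with ranks 2150 and 703, and the third at 19529103, with ranks 543 and 3086. None of the 335 right-arm pairs met a combined region, and 5 of the 381 left-arm pairs did (1.31%), again at the same 3 combined regions. A combined region was met by 16 of 887 pairs in the V centre (1.80%) and 59 of 2706 on the other autosomal arms (2.18%). Over all nuclear pairs it was 203 of 8936 (2.27%).

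**Figure D4:**
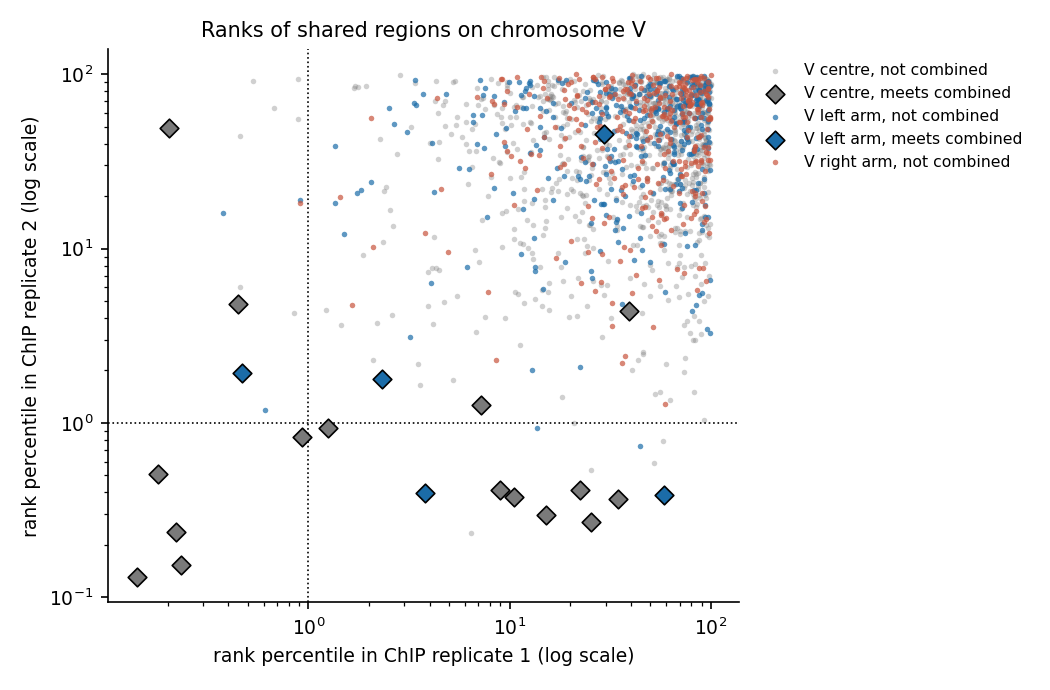
Rank percentile in ChIP replicate 1 (horizontal) and ChIP replicate 2 (vertical) of each pair of overlapping regions on chromosome V, both on log scales, where lower is stronger; dotted lines mark the strongest 1%, with ties in order of peak number, and diamonds mark pairs that meet a combined region. No arm pair lies below both lines, where 5 centre pairs lie, and a left-arm pair at 0.611 and 1.18 has no diamond.

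Left and right arm were alike in the number of regions and differed in part in strength. The left arm held 1144 of the 2188 arm regions of replicate 1 (52.3%) and 1349 of the 2681 of replicate 2 (50.3%), and neither share passed the test against 50.0% (exact binomial test, adjusted p = 0.103 and 0.772). In replicate 1, 7.69% of left-arm regions and 4.79% of right-arm regions were in the strongest 10% (Fisher's exact test, adjusted p = 0.00742). In replicate 2 the shares were 7.12% and 5.86% and did not pass (same exact test, adjusted p = 0.210), and whether the replicates differ in this was not tested. Overlap with the other replicate was 41.7% on the left and 37.9% on the right in replicate 1 (exact test, adjusted p = 0.0880) and 34.0% and 29.8% in replicate 2 (adjusted p = 0.0340 by the same exact test), where the call was lost with overlapping regions merged (33.4% and 30.1%, adjusted p = 0.155). Ranks of the pairs had a Spearman rho of 0.161 over 381 left-arm pairs and 0.0473 over 335 right-arm pairs, across regions that share libraries. The right arm had the lowest share in the strongest 10% of all 10 autosomal arms in both replicates, where the 8 arms of chromosomes I to IV ranged from 6.18% to 10.6% in replicate 1 and from 6.75% to 13.5% in replicate 2. The left arm lay within those ranges. Of the left-arm regions of replicate 1, 6 of 1144 reached the combined list, against 0 of 1044 on the right (Fisher's exact test, adjusted p = 0.0384), and in replicate 2 it was 5 of 1349 against 0 of 1332 (adjusted p = 0.0623 by the same exact test). The call in replicate 1 was lost with overlapping regions merged, 3 of 891 against 0 of 820 (exact test, adjusted p = 0.251). All 3 combined regions were on the left, which 3 regions cannot set apart from an even split (exact binomial test, p = 0.25, the smallest two-sided value that 3 regions allow).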

How the data were processed

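The authors deposited 3 region lists on build WormBase WS220, per the file headers. Their source column reads spp_via_IDR, that is, peaks from SPP passed through the irreproducible discovery rate (IDR), a measure of agreement between replicates. No aligner, version, threshold or use of the inputs is stated in the labels or headers. The deposited score per region has no stated scale, and read depth is unknown. Regions were ranked within a list by score, with ties ordered by each name's peak number; in replicate 1, 344 nuclear regions share the highest score. The 22 and 26 mitochondrial regions were left out. Chromosome lengths are the largest region ends. Arms of I to IV are the outer 25% at each end. Overlap was 1 bp or more, and counts matched bedtools 2.31.1. Shares were compared by two-sided exact binomial and Fisher's exact tests with Benjamini-Hochberg adjustment at 0.05, with 95% Clopper-Pearson intervals, which cover counting error over regions only; a count of 0 was given the limit of 3 counts. Named are all combined arm regions, the best 3 pairs per arm by mean percentile rank, the strongest unpaired regions and the extreme 500 kb bins; the strongest 1% and the densest window were named after their values were seen. The members, tests and lists were chosen with earlier results of these data known. Python 3.11.15, pandas 2.3.3 and scipy 1.17.1 were used. Matching by midpoints within 100 bp and Fisher's exact test were tried on simulated lists of randomly placed regions with a planted overlap. The overlap rule of 1 bp was not simulated. No genome of build WS220 was used, so no sequence is shown.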

Additional observations from a re-analysis of the deposited data

How the results depend on the processing

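Of 128 alternatives, 100 kept both direction and call, 22 kept the direction and lost the call, 6 gained a call and 0 turned the direction. Values are differences in percentage points, V arms minus reference or left minus right. The combined list's deficit against length and the lower share of arm regions in the strongest 10% of both lists than in the V centre or on the other autosomal arms kept their calls under every alternative run. The lower share in the strongest 10% of a list did so except in replicate 1 at the strongest 1% with ties kept. With the combined list replaced by the 197 strongest nuclear regions of a single replicate, its deficit was -8.91 without replicate 1 (3 regions) and -7.39 without replicate 2 (6 regions). The latter cuts a tie at the highest score, and with all 344 tied regions kept it was -6.36 (14 regions).

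Calls were lost as follows. The V-arm share of the V regions of the combined list stood at -16.7 with arms as the outer 2/3. In the stronger 50% of the list it stood at -50.0 (0 of 4), or -33.3 with ties kept (1 of 6), but so few regions could hardly pass the test, and the first of these cuts the tie of 102 regions at the highest score. With midpoints within 100 bp, overlap differed from the other arms by -1.59 in replicate 1 and -0.187 in replicate 2, from the centre by -0.850 in replicate 2, and between left and right by 1.64 in replicate 2. At 50% overlap, replicate 2 gave -1.96 against the centre, -1.50 against the other arms and 1.36 between left and right. Without chromosome IV, chosen after seeing the data, overlap against the other arms was -1.89 and -0.931. With overlapping regions merged, left and right differed by 3.26 in the overlap of replicate 2 and by 0.337 in the share of replicate 1 reaching the combined list, the latter alternative chosen after seeing the data. The share of replicate 1 reaching the combined list was -0.366 (midpoints) and -0.144 (outer 2/3) against the centre, and 0.262 between left and right (midpoints). In replicate 2 it was -0.263 against the centre (outer 2/3). In the strongest 1% of replicate 1, left and right differed by 0.333, or 0.674 with ties kept, where the arms differed from the centre by -0.522 and from the other arms by -0.534. Keeping ties was chosen after seeing the data. Calls gained were all left against right: 3.92 for counts in the stronger 50% of replicate 1, with or without ties kept, 2.02 for the strongest 10% of replicate 2 and 0.489 for its share reaching the combined list (both outer 2/3), and 2.37 and 1.53 for the strongest 25% of both lists, chosen after seeing the data. The causes were not tested.

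Left against right in the stronger 50% of the combined list rests on at most 1 arm region, which is tied at the highest score and falls outside the limit by peak number alone. Overlap needs both replicates. No paired analysis was possible because only region lists of ChIP samples were analysed, leaving no second group to pair them with. Unknown depth limits how far weak regions can be read.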
